A study of Mus musculus with 5 samples.

Results

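The replication-dependent histone genes were described here in bone marrow-derived macrophages (BMDMs), taken from Balb/c mice and kept for 48 hours with 4T1 cells, a mouse mammary carcinoma line, on the other side of a porous membrane. The members were all genes whose current mouse RefSeq symbol begins with H2ac, H2bc, H3c or H4c and a number, or is one of H1f1 to H1f6, and which had a count in at least 1 library. Of 65 such symbols, 49 had a count, out of 17058 genes with a count in all. They comprised 5 linker histone H1 genes, 13 H2A genes, 12 H2B genes, 10 H3 genes and 9 H4 genes, with 40 on chromosome 13 and 9 on chromosome 3. The choice used names only, and no measured change.

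In 2 libraries the BMDMs had been cocultured with WT 4T1 cells, and in 3 with Adam17-/- 4T1 cells, which lack the sheddase ADAM17. Both kinds of coculture used macrophages with intact Adam17, so the level of Adam17 in these libraries checks no label. The knockout cells bear 1 designation, 2.8, in the labels of all 3 libraries, so that the knockout and this line of cells cannot be told apart. The labels do not say whether the replicates were separate cultures or mice, and p-values measure only the spread between these libraries, which may be technical. Library totals ran from 14658694 to 20788373 expected counts, which puts 3 counts, taken as the floor of detection, at 0.157 to 0.197 CPM, or counts scaled to a common library size (by the TMM method of edgeR). This floor covers counting error only.

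Replication-dependent histone genes supply the histones that package newly made DNA, and their mRNAs build up in S phase and are degraded when DNA synthesis stops. H2A, H2B, H3 and H4 form the core of the nucleosome, and H1 binds the linker DNA. Their mRNAs usually end in a conserved stem-loop that is bound by the stem-loop binding protein SLBP, and usually carry no poly(A) tail. In cells that leave the cell cycle, some of these genes are also known to give polyadenylated transcripts. The libraries here were made by poly(A) selection, so the values below are levels of the histone RNA that this selection kept, and not of all histone mRNA in the cells. In bulk RNA, fewer cells that make an mRNA and less of it per cell cannot be told apart.

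The stem-loop is shown first because it is the end that these mRNAs have in place of a poly(A) tail. In GENCODE M21 transcripts (GRCm38), the letters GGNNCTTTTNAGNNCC were searched on the sense strand only, and 34 of the 49 members had a match in at least 1 transcript, against 98 of 58797 protein-coding transcripts in all (0.167%). The form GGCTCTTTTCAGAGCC was carried by 21 members, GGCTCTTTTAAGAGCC by 5 and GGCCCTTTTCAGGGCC by 4. Below, 1 stem-loop is shown for each class together with a second H4 gene, in capitals, with up to 5 bases on each side.
H1f2 (H1): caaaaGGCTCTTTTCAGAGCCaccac
H2ac18 (H2A): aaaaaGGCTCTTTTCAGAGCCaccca
H2bc12 (H2B): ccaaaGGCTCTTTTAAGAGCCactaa
H3c15 (H3): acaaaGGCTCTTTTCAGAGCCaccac
H4c9 (H4): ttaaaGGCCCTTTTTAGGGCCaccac
H4c17 (H4): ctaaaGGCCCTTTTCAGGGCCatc
For 18 members an annotated transcript went on for 100 bases or more past the match, and for 9 of them the poly(A) signal AATAAA followed it. H1f2 was one of these, with a GENCODE transcript of 1560 bases that runs 840 bases past the stem-loop. Others end close to it, as in H4c17, with 3 bases after the match. No match was found for H2ac12, H2bc4, H2bc18 or H2bc23, which says only that these letters are not in the transcripts searched.

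The members were scarce in all 5 libraries. Their summed expected counts were 1180.1 and 964.9 in the WT cocultures and 1268.0, 1015.2 and 1397.6 in the Adam17-/- cocultures, which is 0.00502% to 0.00767% of a library. The number of members with a count was 34 and 30 in the WT cocultures and 32, 33 and 36 in the Adam17-/- cocultures. Of the 49 members, 19 had a count in every library, 30 never exceeded 10 counts and 20 never exceeded 3 counts. The 6 most abundant members held 74.3% of all member counts.

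A pair of features bears on every value below. Histone genes of a class are near-copies of each other, and an expected count divides a read that fits several copies between them, which leaves a gene with a sum that is not a whole number. At a tolerance of 0.01 counts, 35 of the 49 members had such a sum in at least 1 library, whereas in each library 13.5% to 14.4% of the sums of all genes were not whole. The second feature is length. Transcripts over 700 bases, 11 transcripts of 10 genes, held 57.1% to 63.4% of member counts in each library, although most members are annotated with a single transcript shorter than this.

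On the scale that divides by transcript length, summed FPKM, H2B genes made up 33.3% of the member signal over the 5 libraries, H2A genes 31.6%, H1 genes 18.5%, H4 genes 11.7% and H3 genes 4.91%. The H2A sum exceeded the H2B sum in both WT libraries and in Adam17-/- replicate 1, and the H2B sum was the higher in Adam17-/- replicates 2 and 3. The H1 sum was almost all H1f2, which had 97.6% of the H1 counts. In the H3 class, H3c15 held 63.4%, and H4c9 held 37.4% of the H4 counts.

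To ask whether ADAM17 in the cancer cells was linked with the macrophages' histone RNA, levels were compared between the cocultures, first for each class as a sum. Histone H2B, H4 and H1 sums were higher in every Adam17-/- coculture than in both WT cocultures, whereas the H2A and H3 sums overlapped. The H4 sum was 3.14 and 2.0 CPM in the WT cocultures and 4.38, 4.74 and 5.98 CPM in the Adam17-/- cocultures, a ratio of 1.96. The H2B sum was 26.3 and 23 CPM against 32.2, 33.6 and 33.7 CPM, a ratio of 1.35. For H1 it was 11.6 and 11.3 CPM against 12.8, 13 and 15.2 CPM, a ratio of 1.2.

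The H2A sum was close between groups, at 15.1 ± 2.01 CPM (SD, n = 2) in the WT cocultures and 15.6 ± 1.97 CPM (SD, n = 3) in the Adam17-/- cocultures. The H3 sum was 4.24 and 2.33 CPM against 2.74, 2.04 and 3.07 CPM. Here the difference between both WT libraries was larger than that between the group means, and the log2 ratio, -0.33, became 0.17 without WT replicate 1. Summed over all 49 members the level was 57.0 ± 6.75 CPM (SD, n = 2) in the WT cocultures and 70.1 ± 3.66 CPM (SD, n = 3) in the Adam17-/- cocultures, with no overlap and a log2 ratio of 0.30. No p-value is given for these sums. Across all genes tested, every Adam17-/- library lay above both WT libraries for 28.4% of genes and below both for 29.7%.

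**Figure D1:**
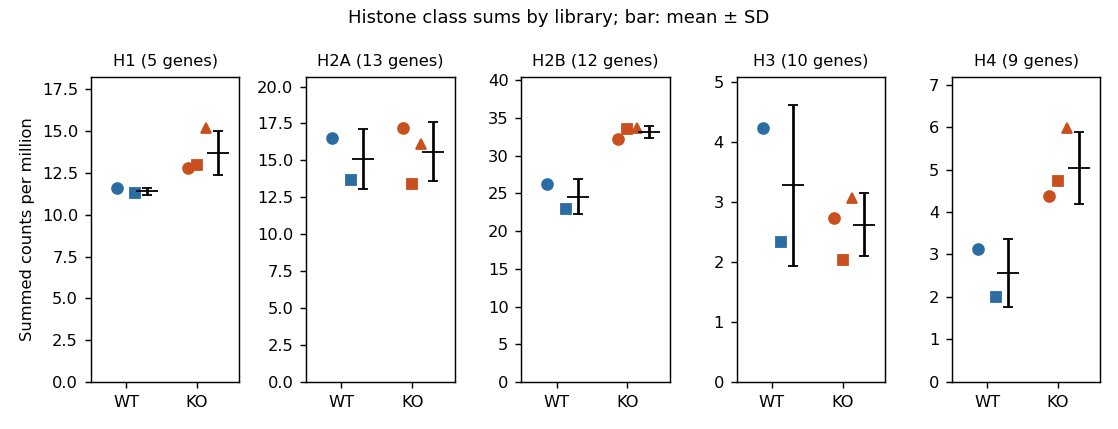
Summed level of each histone class in every library, in TMM-scaled CPM on linear axes that start at 0, with a separate axis for each class. Circles, squares and triangles are replicates 1, 2 and 3 of the WT (blue) and Adam17-/- (orange, KO) cocultures, and bars are mean ± SD. The 3 Adam17-/- values lie above both WT values for H1, H2B and H4, and the groups overlap for H2A and H3.

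Of the 49 members, 18 had enough counts for the edgeR quasi-likelihood test, which was fitted across 12576 genes. At an adjusted p of at most 0.05 and a log2 fold change of at least 1, 4 members were higher in Adam17-/- cocultures, H2ac12, H2bc12, H2bc23 and H4c17, as were 3.36% of all genes tested. At low levels such calls were more frequent among all genes, at 7.46% of the 4815 genes within the range of mean levels of the tested members and at 10.5% of the 2827 genes with a mean of 5 CPM or less, where 14 of the 18 tested members lie. H2ac12, H2bc12 and H4c17 entered the test through the Adam17-/- libraries alone, so that they could only be called higher. The count of 4 of 18 is therefore a description. Without a limit on the fold change, H4c9 also passed, as did 14.9% of all genes in that direction. DESeq2 called 1 of the 11 members for which it gave an adjusted p, beside 2.56% of all genes. With library size as the only scaling, 5 members were called beside 5.08% of genes, and limma called 5 beside 3.97% on log2(FPKM + 0.1) and 3 beside 0.954% on log2(FPKM + 1). Without the fold limit, the share of all genes that passed in the higher direction was 13.6% by DESeq2, 24% with library size only, 23.3% and 22.8% by limma on log2(FPKM + 0.1) and log2(FPKM + 1), and 12% without the filter on low counts. These shares stand beside 1, 7, 8, 8 and 6 members.

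None of the tested members passed in the lower direction by edgeR, DESeq2 or limma on log2(FPKM + 0.1), against 16.8% of all genes by edgeR, or 0.867% with the fold limit. At an unadjusted p under 0.05 there was 1 lower member by edgeR, H2ac19, 1 by DESeq2 and 0 by limma. Of the 18, 14 had a positive and 4 a negative log2 fold change. The median was 0.36, also with H2ac12 set at the floor of 3 counts in the WT libraries, beside 0.01 for all genes tested. In 9 of the 18 every Adam17-/- library lay above both WT libraries, and in the other 9 the groups overlapped, beside 28.4% of all genes tested with every Adam17-/- library above and 29.7% with every one below. The 18 include H2ac12, H2bc12 and H4c17, so these counts and the median are a description too.

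**Figure D2:**
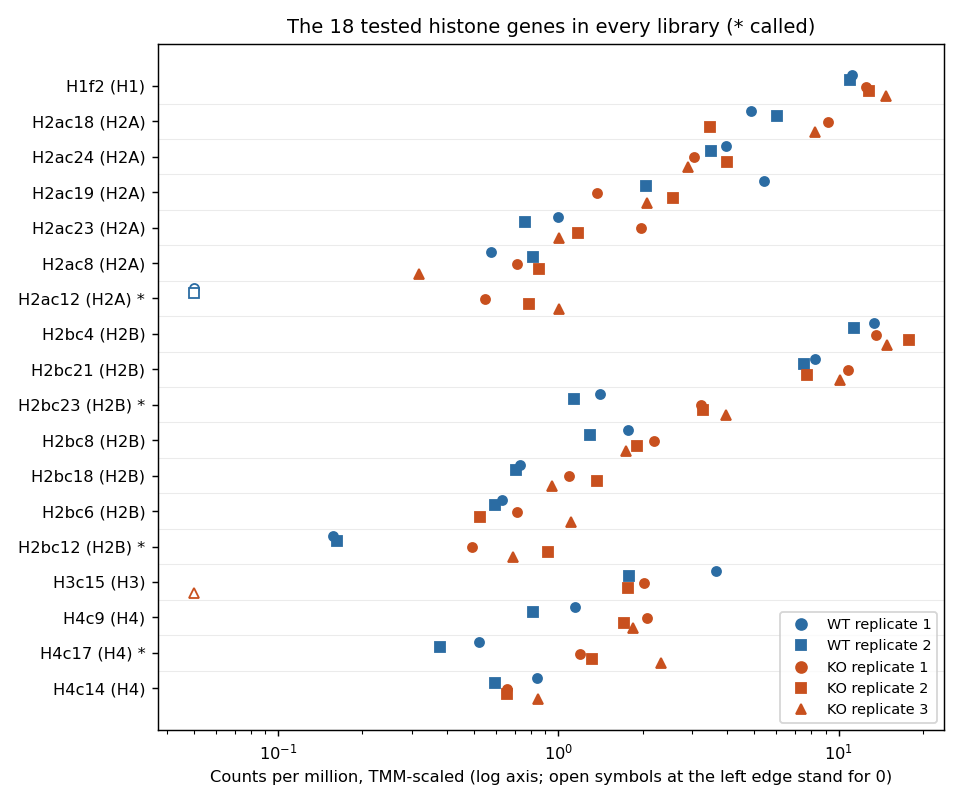
Level of each of the 18 tested histone genes in every library, in TMM-scaled CPM on a log axis, ordered by class and mean level. Blue symbols are WT and orange symbols Adam17-/- (KO) cocultures, open symbols at the left edge are values of 0, and asterisks mark the 4 called genes. H2ac12 is at 0 in both WT libraries, and H3c15 is at 0 in Adam17-/- replicate 3.

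H2bc23 encodes an H2B and lies at chr13:21806412-21810199 on the minus strand (GRCm38), next to the H2A gene H2ac23. Its expected counts were 27.4 and 20.7 in the WT cocultures and 58.9, 50.4 and 75.3 in the Adam17-/- cocultures. All 3 Adam17-/- libraries were well above both WT libraries, with mean levels of 3.50 ± 0.412 CPM (SD, n = 3) and 1.27 ± 0.196 CPM (SD, n = 2). The log2 fold change was 1.45 with a standard error of 0.241 (edgeR adjusted p = 0.00258). DESeq2 also called H2bc23, and gave no adjusted p for the other 3 called genes. Another gene, H4bc24, which does not follow the naming rule, had the same expected count as H2bc23 in every library. Adding H4bc24 to the H2B class made the class sum whole in all 5 libraries, at 530.0 and 445.0 counts in the WT and 648.0, 561.0 and 711.0 counts in the Adam17-/- cocultures, a ratio of 1.42. The reads assigned to H2bc23 can therefore not be told apart from those of H4bc24.

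H4c17 encodes an H4 and lies at chr13:21811746-21812150 on the plus strand. Its expected counts were 10 and 6.94 in the WT cocultures and 22.4, 19.9 and 44.0 in the Adam17-/- cocultures. The groups did not overlap, and Adam17-/- replicate 3 was the highest. The log2 fold change was 1.84 with a standard error of 0.437 (edgeR adjusted p = 0.0124). Neither WT library reached the level asked for by the filter, so H4c17 was tested through the Adam17-/- libraries alone and could only be called higher. It shares a stretch of 366 identical bases with H4c18, which had no count, and 149 with H4c9.

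H4c9, the most abundant H4 gene per length, had 21.7 and 15.1 expected counts in the WT cocultures and 37.6, 26.1 and 34.8 in the Adam17-/- cocultures. In CPM the groups did not overlap, and the log2 fold change was 0.93 with a standard error of 0.295 (edgeR adjusted p = 0.0371). It did not pass with DESeq2 (adjusted p = 0.113), nor by edgeR without WT replicate 2 (adjusted p = 0.151) or without Adam17-/- replicate 1, 2 or 3 (adjusted p of 0.0934, 0.058 and 0.0748). H4c14, whose sums were whole, had 16 and 11 counts against 12, 10 and 16, so that its groups overlapped (log2 fold change 0.01, edgeR adjusted p = 0.982). H4c17 and H4c9 lie on chromosome 13 and H4c14 on chromosome 3.

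H2ac12 (chr13:22035122-22035643, minus strand) and H2bc12 (chr13:22035821-22036320, plus strand) face away from each other across a gap of 177 bases. H2ac12 had no count in either WT library and 9.89, 12.4 and 19.4 expected counts in the Adam17-/- cocultures. Against a floor of 3 counts per WT library, the Adam17-/- mean was 4.89-fold higher (edgeR adjusted p = 0.00308). The floor covers counting error only, and not the division of reads between copies, so this is not a lower bound for the gene. H2bc12 had 2.66 and 2.89 expected counts in the WT cocultures and 9.48, 14.4 and 12.6 in the Adam17-/- cocultures, so the groups did not overlap. From 6 and 36 rounded counts, the ratio scaled for depth was 4.31, with a 95% counting interval of 1.80 to 12.5, and the log2 fold change was 2.07 with a standard error of 0.557 (edgeR adjusted p = 0.0205). Without WT replicate 1 or 2 the edgeR adjusted p of H2bc12 was 0.0864 or 0.0653, and without Adam17-/- replicate 2 or 3 it had too few counts to be tested. Each of these values leaves out 1 library, and where a WT library is left out the remaining one is assumed to vary like the Adam17-/- libraries.

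H2ac12 belongs to 9 H2A genes with counts that are linked by identical stretches of 150 bases or more, and it shares 234 bases each with H2ac23 and H2ac24. The sum over the 9 genes was 118.0 and 103.2 expected counts in the WT cocultures and 123.0, 109.0 and 108.0 in the Adam17-/- cocultures. In CPM these sums overlapped between the groups, with a log2 ratio of 0.15, although H2ac12 within them went from 0 to between 9.89 and 19.4 counts. H2ac24, the most abundant of the 9 genes, had 75.9 and 65.4 counts against 55.6, 60.7 and 55.3. The 10 H2B genes linked in the same way had a sum of 17.4 and 14.7 CPM in the WT cocultures and 20.3, 24.5 and 22.6 CPM in the Adam17-/- cocultures. H2bc4, which was not called, held 71.4% of their counts, and H4bc24 is not among them. This sum therefore does not show how reads were divided to H2bc12 or H2bc23. The 6 linked H4 genes with H4c9 had 1.73 and 0.977 CPM against 2.39, 2.71 and 2.75 CPM. When linked genes were summed before the test, 1 histone feature of the 10 tested was called, H4c17 with its copy H4c18, which had no count. It entered through the Adam17-/- libraries alone and could only be called higher. An adjusted p of 0.05 or less by edgeR was reached by 3 features, the 2 H4 sums and the H2B sum. The share of all features that were called or passed in this fit was not counted.

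The pair H2ac18 and H2ac19 lies on chromosome 3 and shares a stretch of 528 bases. H2ac18, the most abundant H2A gene per length, had 93.1 and 111.1 expected counts in the WT cocultures and 166.7, 53.2 and 154.6 in the Adam17-/- cocultures. H2ac19 had 104 and 38.3 against 25.2, 39.3 and 38.5, so that its high value came from WT replicate 1 alone. The log2 fold changes were 0.37 for H2ac18 (edgeR adjusted p = 0.411) and -0.92 for H2ac19 (edgeR adjusted p = 0.102). Their sum was 10.3 and 8.09 CPM in the WT cocultures and 10.5, 6.08 and 10.2 CPM in the Adam17-/- cocultures, with a log2 ratio of -0.04. Without WT replicate 2, H2ac19 was called lower, with a log2 fold change of -1.46 (edgeR adjusted p = 0.00189), and without WT replicate 1 that change was -0.06 (edgeR adjusted p = 0.925). For H2ac18 it was 0.69 without Adam17-/- replicate 2 (edgeR adjusted p = 0.0355).

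In the H3 class, counts went to one copy or the other. H3c15 had 69.6 and 33 expected counts in the WT cocultures and 37, 27 and 0 in the Adam17-/- cocultures, whereas H3c14 had 0 in the first 4 of these libraries and 50 in the last, Adam17-/- replicate 3. H3c14 and H3c15 share 666 identical bases of their annotated transcripts. With H3c13 the sum of the 3 genes was 71.0 and 33.0 counts in the WT and 37.0, 27.0 and 50.0 counts in the Adam17-/- cocultures, and in CPM the groups overlapped. For H3c15 alone the log2 fold change was -1.14 with a standard error of 0.727 (edgeR adjusted p = 0.256).

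**Figure D3:**
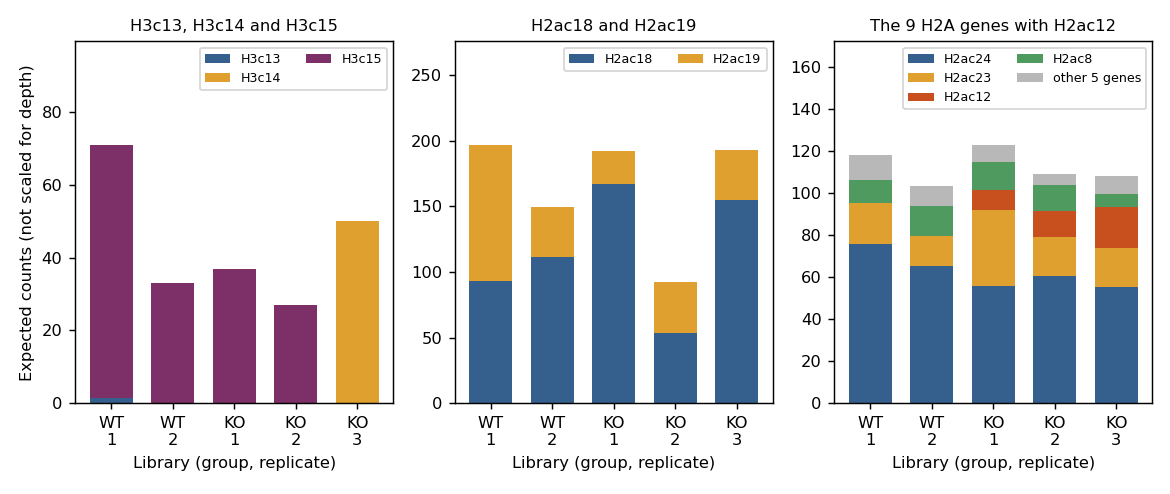
Expected counts of near-identical histone genes stacked by library, on linear axes from 0 and not scaled for depth; each colour is 1 gene. The left panel has H3c15 in all libraries but Adam17-/- (KO) replicate 3, which has H3c14 instead, the middle panel has H2ac18 with H2ac19, and the right panel has H2ac12 in the Adam17-/- libraries only while the sum of its 9 genes stays between 103.2 and 123.0 counts.

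The most abundant members had small differences. H2bc4, an H2B gene with the highest FPKM of all members, had 256.3 and 211.2 expected counts in the WT cocultures and 248.4, 271.1 and 281.4 in the Adam17-/- cocultures. In CPM the groups did not overlap, and the log2 fold change was 0.31 with a standard error of 0.145 (edgeR adjusted p = 0.131). H1f2 encodes a linker histone and had 214 and 204 counts against 228, 195 and 279, again without overlap in CPM, with a log2 fold change of 0.27 and a standard error of 0.125 (edgeR adjusted p = 0.131). With library size as the only scaling both passed, at log2 fold changes of 0.46 for H2bc4 (edgeR adjusted p = 0.0345) and 0.41 for H1f2 (edgeR adjusted p = 0.0318). The second H1 gene per length, H1f3, stayed at 2 and 1 counts against 3, 2.04 and 5.02 and was not tested. H2bc8, second among H2B genes per length, had 33.6 and 24.4 counts against 40.3, 28.7 and 32.6, with overlapping groups in CPM (log2 fold change 0.34, edgeR adjusted p = 0.362).

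Of the 18 tested members, 3 had whole sums in every library. H2bc21 had 157 and 139 counts in the WT cocultures and 198, 117 and 190 in the Adam17-/- cocultures (log2 fold change 0.28, edgeR adjusted p = 0.219). H2bc18 had 14 and 13 counts against 20, 21 and 18 (log2 fold change 0.65, edgeR adjusted p = 0.173). Neither these genes nor H4c14 passed the test, and each of the 4 called genes had sums that were not whole. The remaining tested members, H2ac8, H2ac23 and H2bc6, had log2 fold changes of -0.17, 0.66 and 0.38, with edgeR adjusted p values of 0.810, 0.212 and 0.525.

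The other 31 members fell under the filter on low counts and were not tested in the fit above. Among them, 20 had at most 3 counts in every library. Summed over the libraries, the most counts were seen for H3c14, described above, for H4c8, with 6.78 and 3 counts against 2, 5 and 6.92, and for H4c12, with 3.42 and 0 counts against 3, 9 and 6.81. When all 49 members were tested without the filter, H3c14 was also called, from its 50 counts in Adam17-/- replicate 3 alone, and H2ac19 passed in the lower direction without reaching the fold limit (log2 fold change -0.91, edgeR adjusted p = 0.0324). Without the 4 called genes, the sum over the other 45 members was 59.7 and 50.6 CPM in the WT cocultures and 63.9, 60.4 and 66.0 CPM in the Adam17-/- cocultures, with a log2 ratio of 0.20 and no overlap.

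**Figure D4:**
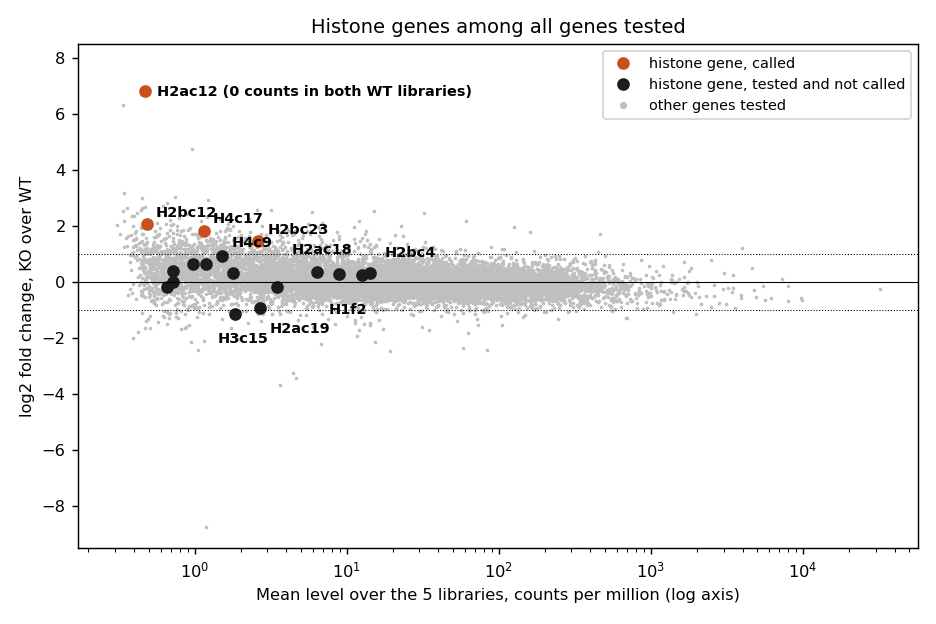
log2 fold change of Adam17-/- over WT cocultures against the mean level in CPM (log axis) for all 12576 genes tested by edgeR. Grey points are other genes, black points histone genes that were not called and orange points the 4 called histone genes, and dotted lines mark log2 fold changes of 1 and -1. The called genes lie at the left, among genes of low level, and the height of H2ac12 depends on the prior count of the fit because both WT libraries are at 0.

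The sum over transcripts of more than 700 bases was 35.2 and 31.9 CPM in the WT cocultures and 41.1, 42.3 and 45.0 CPM in the Adam17-/- cocultures, a log2 ratio of 0.35 with no overlap. For transcripts of 700 bases or less it was 26.5 and 20.4 CPM against 28.3, 24.5 and 29.0 CPM, a log2 ratio of 0.22 with overlapping groups. The difference between both length classes was not tested.

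Promoter sequences are shown for the called genes because histone genes of a pair share 1 promoter region, so that H2ac12 and H2bc12 were called on either side of the same letters. Windows of 250 bases before to 50 bases after the RefSeq start (GRCm38.p6) were given for 44 members. In each, TATAAA on the sense strand, CCAAT on either strand and the octamer ATTTGCAT on either strand are in capitals, as a description of the letters and not as binding sites.
H2ac12, chr13:22035594-22035893, minus strand: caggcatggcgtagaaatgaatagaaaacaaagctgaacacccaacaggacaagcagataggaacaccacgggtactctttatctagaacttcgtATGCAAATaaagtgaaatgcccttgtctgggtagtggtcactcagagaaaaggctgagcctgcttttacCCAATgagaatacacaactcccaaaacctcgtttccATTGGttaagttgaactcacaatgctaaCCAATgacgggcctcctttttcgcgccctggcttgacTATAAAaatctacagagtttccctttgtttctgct
H2bc23, chr13:21810150-21810449, minus strand: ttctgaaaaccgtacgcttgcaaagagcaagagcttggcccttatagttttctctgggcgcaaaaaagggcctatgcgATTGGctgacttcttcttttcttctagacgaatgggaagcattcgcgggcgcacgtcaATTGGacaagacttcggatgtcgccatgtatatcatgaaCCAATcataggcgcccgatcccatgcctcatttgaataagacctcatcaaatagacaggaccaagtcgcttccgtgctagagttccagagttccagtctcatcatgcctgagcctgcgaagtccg
H4c17, chr13:21811496-21811795, plus strand: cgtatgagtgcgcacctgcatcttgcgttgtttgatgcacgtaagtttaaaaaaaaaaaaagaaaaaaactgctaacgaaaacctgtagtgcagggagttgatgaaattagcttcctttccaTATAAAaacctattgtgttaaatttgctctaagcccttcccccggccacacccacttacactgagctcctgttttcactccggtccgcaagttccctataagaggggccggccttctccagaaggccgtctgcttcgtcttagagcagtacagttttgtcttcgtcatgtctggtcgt
The window of H2ac12 covers the whole gap to H2bc12 (chr13:22035644-22035820), and holds all 3 motifs. That of H2bc23 reaches across the 167 bases to H2ac23 and holds CCAAT only, and that of H4c17 holds TATAAA only.

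Over the 44 windows, TATAAA was found in 47.7%, against 8.32% of 32851 promoter windows of all genes. CCAAT was found in 88.6% against 37.4%, and in 37.5% of the H4 windows. The octamer was found in 20.5% against 1.74%, and here in H2A and H2B windows only. Divergent genes share the letters between them, so these windows are not independent of each other.

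Genes that make and process histone mRNA were set beside the members. Over all genes tested, 14.9% passed in the higher and 16.8% in the lower direction, and the counts of the lists below are to be read against these shares. Of 29 tested factors for histone gene transcription and 3′ end processing, 2 rose and 4 fell, with a median log2 fold change of 0.07. SLBP, which binds the stem-loop, was encoded at 20.4 and 26.0 CPM in the WT cocultures and 26.2, 25.3 and 28.4 CPM in the Adam17-/- cocultures, with overlapping groups (log2 fold change 0.20, edgeR adjusted p = 0.233). Npat, the activator of histone gene transcription, had 21.3 and 28.1 CPM against 30.6, 30.5 and 28.2 CPM (log2 fold change 0.27, edgeR adjusted p = 0.130). Zfp473, the mouse zinc finger protein of the histone pre-mRNA processing complex, was the only factor called. It had 1.26 and 0.92 CPM in the WT cocultures and 3.28, 2.57 and 3.18 CPM in the Adam17-/- cocultures (log2 fold change 1.47, SE 0.264, edgeR adjusted p = 0.00372).

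Lsm10 and Lsm11, subunits of the U7 small nuclear ribonucleoprotein that directs cleavage after the stem-loop, had log2 fold changes of -0.08 and 0.07, and Casp8ap2, which encodes the FLASH protein, 0.11. None of these 3 passed the test (edgeR adjusted p of 0.725, 0.698 and 0.545). The other factor that rose was Pcf11 (log2 fold change 0.55), of the cleavage complex for polyadenylated mRNA, and those that fell were Cstf1 (-0.51), Cpsf2 (-0.40), Upf1 (-0.37) and Cpsf3 (-0.26). These counts rested on single libraries: without WT replicate 1 or 2, 4 or 7 factors rose and 2 or 5 fell, and without Adam17-/- replicate 1, 2 or 3, 2 rose each time and 0, 0 or 1 fell. With library size as the only scaling, 7 factors rose and 0 fell by edgeR. This scaling put the median of all genes at 0.16 instead of 0.01.

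Among 12 tested histone genes outside the naming rule, 2 rose and the median was 0.01. Most of these encode replication-independent variants with polyadenylated mRNAs, but the list also holds H2aw, a replication-dependent H2A gene, and H2ax, whose mRNA can end in the stem-loop. Their log2 fold changes were -0.14 and -0.41, and neither passed (edgeR adjusted p of 0.622 and 0.124). Cenpa, the centromeric H3 variant, had 4.92 and 4.55 CPM in the WT cocultures and 12, 8.88 and 9.58 CPM in the Adam17-/- cocultures (log2 fold change 1.11, edgeR adjusted p = 0.00194). H2az1, an H2A variant, had a log2 fold change of 0.45. Without WT replicate 2, 2 genes of this list passed in the lower direction. Of 26 tested histone chaperones, 3 rose (Atrx, Hjurp and Cdan1, at 0.67, 0.54 and 0.34) and 6 fell, the most Ipo4, a histone import receptor, at -0.80, with a median of -0.05. With library size as the only scaling, 4 chaperones rose and 3 fell, and without Adam17-/- replicate 1 or 2, 1 or 3 fell.

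Histone mRNA is made in S phase, so genes of the cell cycle were set beside it. Of 42 tested S-phase genes, 2 rose and 11 fell, and the median was -0.08. Mcm5, a subunit of the replicative helicase, fell from 14 and 10.8 CPM to 4.05, 7.17 and 6.67 CPM (log2 fold change -1.06, edgeR adjusted p = 0.00705), and Mcm2, Mcm3, Mcm4 and Mcm6 also fell. The genes that rose were Ccna2 (0.72) and Tyms (0.45). With library size as the only scaling, 5 S-phase genes rose and 5 fell, and without Adam17-/- replicate 1, 2 or 3, 6, 6 or 7 fell. Among 22 tested genes of G2 and mitosis, 13 rose with a median of 0.63, and the called ones were Cenpf (1.19), a kinetochore protein, and Kif11 (1.01), a spindle motor. The sum over the G2 and mitosis genes was 194 to 197 CPM in the WT cocultures and 259 to 278 CPM in the Adam17-/- cocultures. Whether these genes had a part in the histone differences was not tested.

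**Figure D5:**
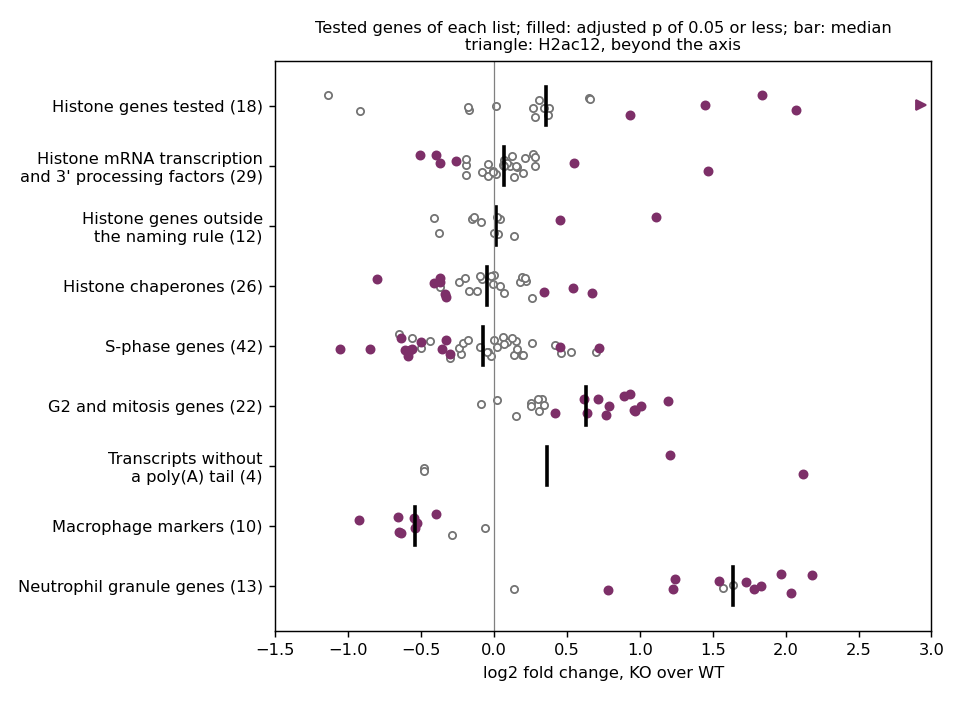
log2 fold change of Adam17-/- over WT cocultures for each tested gene of 9 sets, with the number tested in brackets. Filled points passed an adjusted p of 0.05 by edgeR, open points did not, thick bars are medians, vertical scatter within a row has no meaning, and the triangle is H2ac12, whose fitted value lies beyond the axis. Medians run from -0.54 for macrophage markers to 1.64 for neutrophil granule genes, with 0.36 for the histone genes.

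RNAs that lack a poly(A) tail should be depleted by the selection, and what remained of them was measured in the same libraries. Of 15 such genes with a known symbol, 10 had a count and 4 were tested. Rn7sk, the 7SK small nuclear RNA, had 2.62 and 1.89 CPM in the WT cocultures and 7.94, 13.9 and 7.94 CPM in the Adam17-/- cocultures (log2 fold change 2.12, edgeR adjusted p = 0.00129). Malat1, a nuclear RNA that ends in a triple helix, had 1940 and 2510 CPM against 5450, 5020 and 4980 CPM (log2 fold change 1.21, edgeR adjusted p = 0.000402). Rn7s1 and Rn7s2, the 7SL RNAs of the signal recognition particle, went the other way, with equal values of 1.26 and 1.41 CPM against 0.876, 0.789 and 1.16 CPM, and did not pass (log2 fold change -0.48, edgeR adjusted p = 0.264). Of 11 tested long noncoding transcripts, only some of them nuclear-retained and Malat1 among them, 5 rose, with a median of 0.43. The part of poly(A) selection in the histone differences was not tested.

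Markers of the cells that the culture could hold also moved with the groups. All 10 markers of the labelled macrophages had counts, at a sum of 28600 to 29500 CPM in the WT and 18700 to 20700 CPM in the Adam17-/- cocultures, where 8 of the 10 fell and Lyz2 was the most abundant. Of 13 tested neutrophil granule genes, 10 rose, 9 of them called (Elane, Ltf, Camp, Ngp, Lcn2, S100a8, S100a9, Retnlg and Ly6g), and the sum went from 1380 and 1400 CPM to between 2270 and 2560 CPM. Some of these genes are made in dividing bone marrow precursors, and their part in the histone levels was not tested.

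Of 11 tested megakaryocyte and platelet genes, 8 rose, Itga2b, Gp9 and Gp1bb among those called, and Pf4 and Ppbp fell. In the eosinophil, basophil and mast cell list 3 genes were tested and Kit was called, in the erythroid list 3 were tested and Hba-a1 was called while Hbb-bt and Hbb-bs had no count, and in the B lymphoid list 3 were tested and Ebf1 was called, all higher. Stromal genes numbered 5 tested, with Col3a1 and Pdgfrb called higher and a sum of 40.6, 62.3 and 121 CPM in the Adam17-/- cocultures against 41.2 and 35.0 CPM. Of 11 mammary epithelial genes, 1 had enough counts to be tested and did not pass, and the sum was 11.5 to 13.3 CPM in the WT and 12 to 14.3 CPM in the Adam17-/- cocultures.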

How the data were processed

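The 5 libraries were grouped by their labels. The authors selected poly(A) RNA and sequenced it on a BGISEQ-500 instrument. The study names HISAT on GRCm38, Bowtie2 and DESeq2, and the submitters' processing notes add RSEM, Bowtie and mm10. Their versions are not given in the sources used here, nor is the handling of strand and of overlapping genes. For every transcript and library, the files deposited by the authors hold an unnormalised expected count beside an FPKM value (fragments per kilobase and per the size of the library). Transcripts under an FPKM of 0.01 are not listed and were taken as 0.

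Expected counts were added up for each gene and rounded. The quasi-likelihood test of edgeR 4.0.16 (R 4.3.3) was run with TMM scaling and filterByExpr and no covariates, with Benjamini-Hochberg adjustment over all 12576 genes tested. A gene was called at an adjusted p of at most 0.05 with a change of at least 1 on the log2 scale. CPM values (counts scaled to a common total) use TMM-scaled library sizes, from rounded counts for genes and from unrounded counts for class sums. Alternatives used DESeq2 1.42.0 and limma 3.58.1. Symbols, positions and promoters came from RefSeq (GRCm38.p6), matching 17015 of 17058 gene IDs, and stem-loops from GENCODE M21. Genes of a class were linked where transcripts shared at least 150 identical bases. Ratio intervals are exact (Clopper-Pearson).

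Values in every library are given for each called member and the most abundant of each class, and of other lists the genes called and fixed processing factors. Listed names that matched no symbol were left out, which kept 29 of 30 processing factors, 13 of 14 neutrophil genes, 26 of 27 chaperones, 18 of 23 other histone genes and 15 of 17 transcripts without a poly(A) tail. One gene of another list is not reported here. The members, gene lists and tests were chosen with earlier results of these data known.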

Additional observations from a re-analysis of the deposited data

How the results depend on the processing

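The count of members called higher, 4 by edgeR, was 4 with upper quartile factors, 5 with library size only, without the filter on low counts, without the fold limit and with limma on log2(FPKM + 0.1), and 3 with limma on log2(FPKM + 1). It fell to 2 at an adjusted p of 0.01 and to 1 each where at least 10 counts were asked for in every library, with DESeq2, which gave an adjusted p to 11 members, and with linked copies summed, an alternative chosen after seeing the data. It was 0 among members with whole sums. H2bc23 was called in all of these except limma on log2(FPKM + 1), where it passed without the fold limit, and those that left it out or summed it with its copies. Shares of all genes called were not counted for upper quartile factors, the unfiltered fit, the adjusted p of 0.01, the limit of 10 counts or summed copies. Nor were they counted for the fits without a replicate, so these counts describe the members only. Leaving out each replicate gave 3 to 4 higher calls and 0 to 1 lower calls. Members passing the adjusted p in the higher direction, 5, were 2 with at least 10 counts, 1 with DESeq2, 3 with copies summed, 0 with whole sums, 6 without the filter, 7 with library size only, 8 with either limma fit, and 3 to 4 without a replicate.

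Class sums as log2 ratios moved to 0.41 for H1 and 0.58 for H2B with library size only, and the FPKM sums gave 0.41 and 0.58 too. Without its most abundant member the ratio was 0.13 for H1, -0.16 for H2A, 0.54 for H2B and 1.25 for H3, and with transcripts of at most 700 bases 0.69 for H2B. For H1 no such transcript sum could be computed. Leaving out each replicate, the ranges were 0.18 to 0.31 for H1, -0.08 to 0.19 for H2A, 0.33 to 0.53 for H2B, -0.70 to 0.17 for H3 and 0.68 to 1.33 for H4. Genes of the 5 histone and cell cycle lists that passed, 22 higher and 21 lower, were 34 and 8 with library size only, and 17 to 26 and 7 to 27 without a replicate. The H3 ratio of 1.25 rests mainly on the 50 counts of H3c14 in Adam17-/- replicate 3, the only library where that gene had a count. With library size only, the median of all genes was 0.16 instead of 0.01. The cause of the other shifts was not tested.

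Replicate numbers are shared between the groups, but nothing says that they mark a pairing. Deviations from the group mean had correlations of -0.16 and -0.08 across genes for same-numbered libraries. The deviations of the 2 WT libraries mirror each other by construction, so these values cannot decide on a pairing. With the number as a replicate block, 4 members were called and 4 passed, H4c9 being lost, and 471 genes were called in all instead of 531. The sign turned for H2ac8, to 0.18 under the block and over -0.41 to 0.19 without a replicate, and for H4c14, to -0.13 and over -0.21 to 0.28. These were 6 of 135 member fold changes recomputed, and neither gene passed in any of them. Counts under 10 in most members limit what could be detected.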
